A study of Mus musculus with 6 samples.

Results

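The genes of U1 small nuclear RNA (snRNA), the RNA of the spliceosome that pairs with the 5′ splice site, carried YTHDC1 binding peaks in every library of this LACE-seq experiment. A member was any deposited peak that overlapped by at least 1 nt an mm9 GENCODE gene named U1 of type snRNA, on the strand opposite to the gene. The strand given for a peak is that of the cDNA read, so the opposite strand is that of the RNA. By this rule 584 peaks of 178779 in all 6 libraries were U1 peaks, and they lay on 68 of the 206 annotated U1 genes. No peak lay on the other strand of a U1 gene in any library. Of the 178779 peaks, 1287 (61 to 420 per library, with 0.525% to 1.56% of the reads in peaks) lay on mm9 sequences without annotated genes here, so they could not be assigned to U1 and stayed in the totals.

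LACE-seq records where a protein was crosslinked to RNA by UV light, because reverse transcription of the immunoprecipitated fragments stops there. YTHDC1, a nuclear reader of N6-methyladenosine (m6A), was pulled down with an antibody from wild-type mouse cells, and no control pulldown was analysed here. Muscle satellite cells activated by 48 hr in culture (ASC-48 hr) gave 4 libraries, from biological replicates B1 and B2 with technical replicates T1 and T2 each. The C2C12 myoblast line gave 2 libraries from 10 times as many cells, which the labels call biological and the study's text calls technical replicates, so that their spread may be technical. The RNAs of genes that mark myogenic cells held 0 to 18 peaks per library. Pax7, the satellite cell factor, held 1 peak in each ASC B1 library, 2 and 10 in the B2 libraries and 0 and 1 in C2C12, whereas Des held 0 to 4 in ASC and 18 and 17 in C2C12. Myod1 held 0 to 6 peaks in ASC and 5 and 3 in C2C12, Myf5 at most 2 in any library, and Myog, a gene of differentiation, none in all 6. These are peaks on bound RNA and do not measure expression.

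U1 snRNA is made by RNA polymerase II, receives a cap, and is assembled with the U1-70K, U1A and U1-C proteins and a ring of Sm proteins into the U1 snRNP. Its 5′ end base pairs with the 5′ splice site of pre-mRNA, and the particle also protects transcripts from early cleavage and polyadenylation. The Sm ring sits on a short single-stranded stretch, the Sm site, that lies before the last stem-loop. Mammalian genomes hold several true U1 genes and many diverged copies of them, so a short read from U1 can match many places.

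The exact sequence found at more annotated U1 genes than any other was taken as the reference. It was 164 nt long, was shared by 7 genes (2 on chromosome 11 and 5 on chromosome 12) and is called U1a here, as RefSeq names a gene of that length Rnu1a1. The second most common sequence was 166 nt long, was carried by 3 genes on chromosome 3 and is called U1b. Both are shown because the peaks are placed on them throughout, in mm9 sequence from 5′ to 3′. Capitals in U1a mark the element that pairs with the 5′ splice site (positions 3 to 11, counted from 1 at the 5′ end of the RNA) and the Sm site (126 to 133). Capitals in U1b mark the bases that differ from U1a.
U1a: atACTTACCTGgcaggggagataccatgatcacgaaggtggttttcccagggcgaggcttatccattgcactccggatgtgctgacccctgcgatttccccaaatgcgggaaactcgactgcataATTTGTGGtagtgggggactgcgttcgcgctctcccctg
U1b: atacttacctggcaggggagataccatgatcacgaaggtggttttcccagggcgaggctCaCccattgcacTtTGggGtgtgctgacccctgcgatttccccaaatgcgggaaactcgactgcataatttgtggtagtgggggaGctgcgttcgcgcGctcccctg
The substitutions from U1a to U1b were T60C, T62C, C73T, C74G, A77G and T156G, and U1b held 2 inserted bases besides. All but T156G of these substitutions fell between positions 60 and 77, and the first 59 bases were identical.

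The highest bins in C2C12 crossed the 5′ end of such genes. The 20-nt bins of 3 of them are shown because each cut the RNA at another base, with capitals for bases of the RNA and lower case for the genomic bases before it. They lie at chr11:87236361-87236380, chr12:55811281-55811300 and chr3:96132341-96132360, on the plus strand of mm9.
ENSMUSG00000070246.1 (U1a, in an intron of Tex14): cgcaactcATACTTACCTGG
ENSMUSG00000075943.1 (U1a): ggtatcaacaactcATACTT
ENSMUSG00000075978.1 (U1b): ggagagcATACTTACCTGGC
The RNA part of the bins at ENSMUSG00000070246.1 and ENSMUSG00000075978.1 holds the whole pairing element, and that at ENSMUSG00000075943.1 ends inside it. The first 2 held up to 54 reads in C2C12 and the U1b bin up to 52. At another exact copy, ENSMUSG00000075923.1, a bin with the same RNA part as at ENSMUSG00000070246.1 also held up to 54.

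The U1 peaks numbered 75 in ASC B1 T1, 89 in B1 T2, 118 in B2 T1, 117 in B2 T2, 87 in C2C12 replicate 1 and 98 in replicate 2. The lists they come from held, in the same order, 8115, 10759, 7925, 19448, 60540 and 71992 peaks. The number of reads under them, in the same order, was 1002, 1439, 1727 and 1915 in ASC and 1896 and 1802 in C2C12. C2C12 replicates thus held about as many U1 reads in peaks as ASC B2, although all their peaks together held 523067 and 607366 reads against 57953 to 111729 in the ASC libraries. As a share of all reads in peaks, U1 took 1.73%, 1.79%, 2.93% and 1.71% in the ASC libraries and 0.362% and 0.297% in the C2C12 libraries. The lowest ASC share lay above both C2C12 shares, and B2 T1 stood apart from the other ASC libraries. The mean was 2.04% ± 0.400 (SD, n = 2 biological replicates) in ASC and 0.330% ± 0.0465 (SD, n = 2) in C2C12, a ratio of 6.19. Under other settings the ratio ran from 4.18, with a p-value of at most 0.00001, to 9.63, with the same floor of 6 reads per bin in all libraries. A two-sided exact permutation test of the 2 ASC biological replicates against the 2 C2C12 replicates gave p = 0.333, the smallest p that this design allows, and with all 4 ASC libraries as separate values p = 0.133. Cell number, the number of listed peaks and cell type differ together between the groups and cannot be told apart. The lowest number of reads that a listed peak held was 5 in ASC B1 T1, B1 T2 and B2 T1, 4 in B2 T2 and 6 in C2C12. Since the libraries' total reads were not in the peak lists, the share is of reads in listed peaks only, and the total depth is unknown. A read could be placed at up to 10 positions, so these totals and shares count placements. A read from U1 can be counted at several U1 genes, while a read that matches 1 place is counted once.

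Other spliceosomal snRNA families gave the scale of these shares. The U6 family, annotated at 936 genes, took 2.13% ± 1.05 (SD, n = 4 libraries) of the reads in ASC peaks and 0.778% ± 0.144 (n = 2) in C2C12 peaks. The U1 share was 2.04% ± 0.596 over the 4 ASC libraries, within the U6 spread, from 206 genes. U2, which pairs with the branch site, took 0.689% in ASC and 0.166% in C2C12, U4 0.220% and 0.0730%, and U5 0.204% and 0.0509%. In each of these 5 families the ASC share was the higher one, and the ratio of the 2 means was 6.19 for U1, 4.14 for U2, 4.01 for U5, 3.01 for U4 and 2.74 for U6. Whether these ratios differ between families was not tested. The shares count placements of reads, and how often a read was counted at several genes of a family is unknown. The families U7, U11 and U12 held at most 7 peaks in any library.

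**Figure D1:**
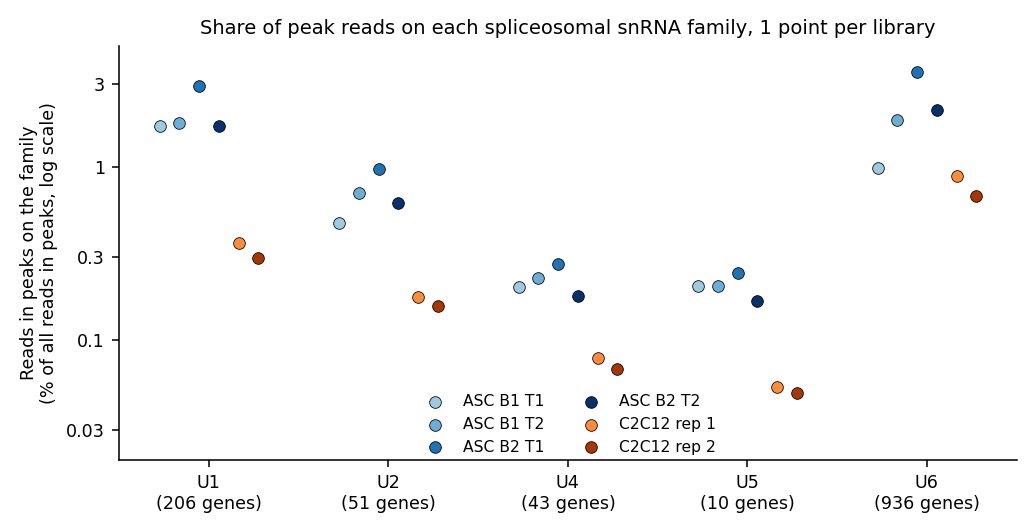
Share of all reads in peaks (%, log axis) that lay on genes of 5 spliceosomal snRNA families, with 1 point per library and the number of annotated genes under each family. The U1 points of the 4 ASC libraries sit between 1.71 and 2.93, above the C2C12 points at 0.362 and 0.297.

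The annotated U1 genes differed widely in sequence, and those close to U1a had peaks most often. Over the 206 genes, the length ran from 101 to 186 nt with a median of 160.5, and the identity to U1a over its whole length ran down to 51.2% with a median of 74.4%. A peak in all 4 ASC libraries was found on 39 U1 genes (18.9%), beside 8.46% of the 1217 other snRNA genes. With a p-value of at most 0.00001 it was found on 19 U1 genes, without a background share at that setting. A peak in both C2C12 libraries was found on 49 U1 genes (23.8%), beside 23.2% of the other snRNA genes, a share near the background. All 39 genes of the ASC count were among the 49 of C2C12.

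All 35 genes at least 90% identical to U1a had a peak in some library, and 31 of them had one in all 6. Of the 171 genes below that identity, 33 had a peak. By class, all 7 exact copies and all 16 genes from 95 to under 100% had a peak in all 6 libraries, and 8 of 12 genes from 90 to under 95% did. From 80 to under 90% only 3 of 23 genes had a peak in all 6 libraries, from 70 to under 80% 3 of 93, and under 70% 2 of 55. The highest identity of a gene without any peak was 86.6%. The genes at least 95% identical to U1a held 79.8%, 73.5%, 63.3% and 66.1% of the U1 reads in the ASC libraries, and 72.3% and 71.1% in C2C12. A read could be placed at up to 10 positions with at most 2 mismatches, so one read from a true U1 RNA could be counted at several of these genes.

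**Figure D2:**
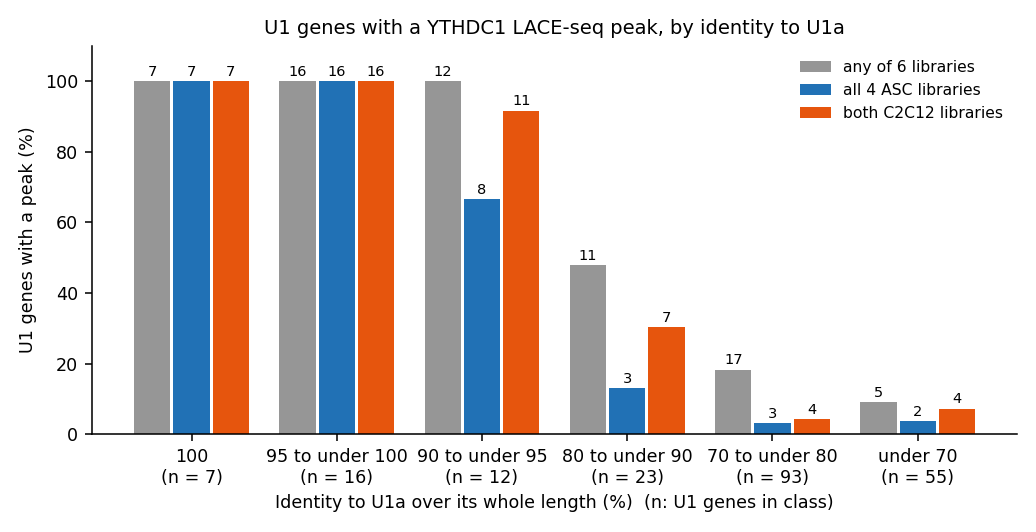
Share of the annotated U1 genes with a peak (%) in any of 6 libraries, in all 4 ASC libraries and in both C2C12 libraries, by identity to U1a, with the number of genes printed above each bar. All 23 genes at 95% or more had a peak in all 6 libraries, against 3 of 93 genes from 70 to under 80%.

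The near copies, those at least 90% identical, comprised 22 genes on the plus strand of the genome and 13 on the minus strand. Of these, 10 lay in introns of protein-coding genes and 25 lay outside them, and 14 had the U1a bases between positions 60 and 77, 10 those of U1b and 11 neither. The flanks held almost nothing: within 200 nt before or after the near copies the 6 libraries together had 1 peak, downstream of a copy in C2C12 replicate 1.

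The 5 highest genes by mean were exact copies and U1b copies in ASC, and in C2C12 also 1 gene that is neither, all on the plus strand. In each library the value of a gene is that of its highest peak, averaged over bins where the peak spans several. ENSMUSG00000070246.1, an exact U1a copy in an intron of Tex14 on chromosome 11, had 17 reads per bin in ASC B1 T1. It had 10.5 in B1 T2, where the peak spanned 2 bins, 38 and 47 in ASC B2, and 54 in both C2C12 libraries. ENSMUSG00000075923.1, the same sequence on chromosome 12, had 19, 10, 35 and 48 reads per bin in ASC and 54 and 53 in C2C12, the 10 averaged over 2 bins. At both copies the C2C12 values were above all ASC values, and within ASC the B2 libraries were above the B1 libraries. ENSMUSG00000075996.1, also exact and the first by mean in ASC, had 16, 20, 34 and 47 reads in ASC (29.2 ± 14.1, SD, n = 4 libraries) and 22 and 32 in C2C12, so that here the groups overlapped.

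Among the chromosome 3 copies with the U1b bases, ENSMUSG00000075978.1 had 19, 16, 19 and 44 reads per bin in ASC and 47 and 52 in C2C12. ENSMUSG00000065294.1, inside an intron of BC107364 on the opposite strand, had 14, 10, 19.5 and 44 in ASC and 48 and 52 in C2C12. ENSMUSG00000075728.1, 165 nt long and so not the exact U1b sequence, was the fifth by mean in ASC. It had 17, 20, 29 and 26 in ASC and 30 and 21 in C2C12. Its groups overlapped, while at the other two the C2C12 values were the higher ones. Between copies whose means lay next to each other in this order, the differences were smaller than the spread over the ASC libraries: the 5 highest ASC means ran from 29.2 to 23.0, with SDs of 5.48 to 17.2.

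ENSMUSG00000075736.1 on chromosome 12, 1 base away from U1a (99.4% identity), was the fifth in C2C12. Its highest peak held 17, 12, 39 and 13.5 reads per bin in ASC and 42 and 45 in C2C12. The 13.5 of B2 T2 is the mean of 2 merged bins. Over all 39 U1 genes with a peak in all 6 libraries, the mean of the highest peak ran from 5.75 to 29.2 reads per bin in ASC and from 7.5 to 54 in C2C12. Both C2C12 values were above all ASC values on 17 of the 39 genes, below them on 1, ENSMUSG00000065045.1, and overlapped with them on 21. At ENSMUSG00000065045.1 the C2C12 peaks spanned 3 and 4 bins and the highest ASC peaks 2, so single bins cannot be compared there. Among other snRNA genes with a peak in all 6 libraries the C2C12 values were all above on 59 of 102 (57.8%). The reads per bin were not scaled for depth. On the plus strand, the highest peak of the near copies had medians of 11, 10.6, 23 and 24 reads per bin in ASC and 24 and 22 in C2C12. On the minus strand the medians were 8.60, 11.3, 14, 11, 11.6 and 12 in the same order. The plus-strand median was the higher one in 5 of the 6 libraries, all but ASC B1 T2.

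The rank of U1 among all peaks was read within each library, and since the lists differ in length and in their lowest listed value, the ranks are a description. The highest U1 bin held 19, 20, 39 and 48 reads in ASC, which made it the peak of rank 65, 87, 3 and 4 of its library, and 54 in both C2C12 libraries, rank 5 and 10. Among the 100 highest peaks of each library, 2, 2, 18 and 21 were U1 peaks in ASC, and 11 in each C2C12 library. Among the ASC lists, the number of U1 peaks in the highest 100 differed more between B1 and B2 than between T1 and T2. The median U1 peak held 7.5, 8.5, 10 and 10 reads per bin in ASC and 12 and 11 in C2C12.

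**Figure D3:**
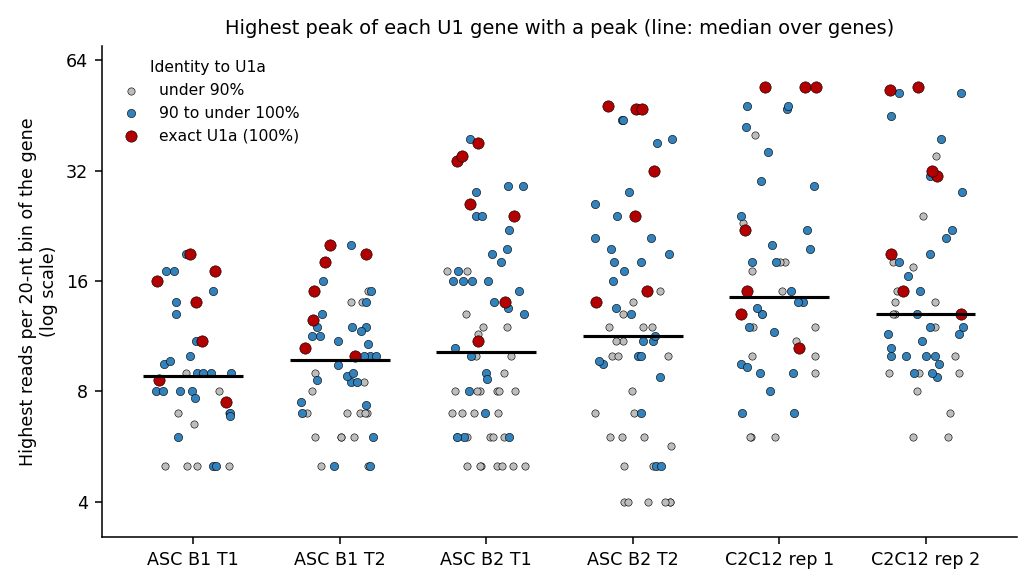
Reads per 20-nt bin (log axis) of the highest peak of each U1 gene, averaged where it spans several bins. Values are by library, with exact U1a copies in red, other genes from 90% in blue, genes under 90% in grey and the median over genes as a line. The exact copies reach 54 in both C2C12 libraries and 48 in ASC B2 T2, but 19 and 20 in the ASC B1 libraries.

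Position within the RNA was read on U1a coordinates, and it depended on which genomic strand the copy lies on. On the 22 plus-strand near copies, a peak reached over the 5′ end of the RNA on 12, 14, 10 and 12 copies in the ASC libraries, and on 16 and 15 in the C2C12 libraries. On the 13 minus-strand near copies no peak reached the 5′ end in any library. The 5′-end peaks of the plus-strand copies held 29.2%, 34.7%, 20.3% and 35.2% of the reads under peaks of those copies in ASC, and 49.5% and 48.2% in C2C12. Both C2C12 shares were above all 4 ASC shares. The highest peak of a plus-strand copy reached over its 5′ end on 8 of 20, 9 of 22, 3 of 22 and 8 of 22 copies in ASC. In C2C12 it did so on 16 of 21 and 14 of 21 copies.

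The same sequence therefore gave other bins on the 2 strands. Of the 7 exact copies, 5 lie on the plus strand and 2 on the minus strand. On the minus strand, ENSMUSG00000075789.1 had a peak over positions 14 to 53 of 11.5 and 10 reads per bin in ASC B1 T2 and B2 T1 and of 14.5 and 17.5 in C2C12, while B1 T1 listed 14 to 33 alone, at 8. Its bin over 74 to 93 had 14, 18 and 5 reads in ASC B1 T1, B1 T2 and B2 T1 and 15 and 19 in C2C12, and in B2 T2 a single peak over 14 to 93 had 9.5 reads per bin. ENSMUSG00000075825.1 had a peak over 10 to 49 of 9, 8 and 10 in ASC B1 T2, B2 T1 and B2 T2 and of 10.5 and 15 in C2C12, and a bin over 70 to 89 of 15, 11 and 15 in the same ASC libraries and of 10 and 15 in C2C12. Neither had a peak of more than 19 reads per bin in any library, while each of the 5 plus-strand copies reached at least 32 in some library. On a gene of the plus strand the lower genomic coordinate is the 5′ side of the RNA, and on a gene of the minus strand it is the 3′ side. Which base of a read was binned is not given in the sources used here, and its part in the strand difference was not tested.

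**Figure D4:**
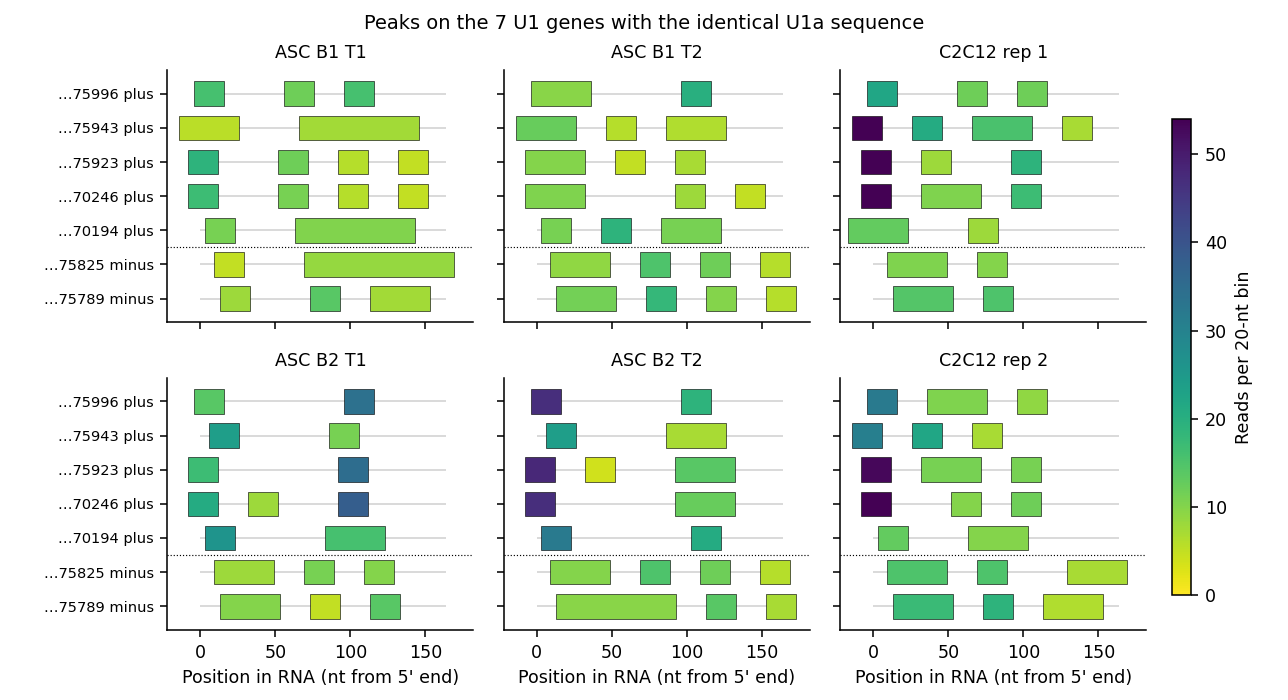
Peaks on the 7 genes with the identical U1a sequence, 1 row per gene (last 5 digits of its identifier and its genomic strand) and 1 panel per library, along the RNA (nt from the 5′ end, negative values before it), coloured by reads per bin. Plus-strand copies show dark bins at the 5′ end, up to 54 reads, and minus-strand copies show none that reach it.

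The grid of 20-nt bins cut the 5′ end of the copies at different bases. On 13 of the 22 plus-strand near copies the bin that holds the 5′ end takes in 11 or more bases of the RNA, and a peak covered it on 10, 11, 10 and 11 of them in ASC and on 11 in each C2C12 library. On the other 9 copies this first bin takes in at most 10 bases, and a peak covered it on 2, 3, 0 and 1 copies in ASC and on 5 and 4 in C2C12. The bin that follows was listed without it on 3, 5, 6 and 8 of the 9 copies in ASC and on 1 and 2 in C2C12. The 9 copies share reads, so no test was made. At ENSMUSG00000075943.1, a bin ending at position 6 had 54 and 31 reads in C2C12 and was not listed on its own in any ASC library. In ASC B2 T1 and B2 T2 the next bin, positions 7 to 26, had 24 reads each and was the listed one, while B1 T1 and B1 T2 had both bins merged, at 5.5 and 12.5 reads per bin. At ENSMUSG00000064447.1, a copy with the U1b bases, the bin ending at position 9 had 48 and 31 reads in C2C12. In ASC B2 T1 the bin from 10 to 29 had 18 reads there, and the other ASC libraries had the 2 bins merged at 6 to 15 reads per bin. At ENSMUSG00000065020.1, the bin from 6 to 25 had 15, 8, 22 and 28 reads in ASC, and C2C12 had it merged with the bin before it at 13 and 10.5. Other copies were mixed within a cell type. At ENSMUSG00000064967.1, ASC B1 T2 listed the bin ending at position 5 alone, at 10 reads, while the other ASC libraries listed the bin that follows it and C2C12 had both merged. At the exact copy ENSMUSG00000070194.1, C2C12 replicate 2 and all 4 ASC libraries listed only the bin that follows, and C2C12 replicate 1 had both merged. A cDNA that ran to the end of the RNA without stopping would end at the same place, and the peak lists do not separate it from a stop at a crosslink.

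A second stretch lay before the Sm site. On ENSMUSG00000075996.1 the bin from 97 to 116 had 16, 20, 34 and 19 reads in ASC and 12 and 9 in C2C12, so that every ASC value was above both C2C12 values. On ENSMUSG00000070246.1 the bin from 93 to 112 had 6, 8 and 38 reads in ASC B1 T1, B1 T2 and B2 T1 and 17 and 12 in C2C12, and in B2 T2 it was merged with the next bin at 12.5. On ENSMUSG00000075923.1 the same bin had 6, 7 and 35 in the first 3 ASC libraries and 19 and 11 in C2C12, and in B2 T2 it was merged at 14. The groups overlapped on both, and B2 T1 was the highest library at all 3 copies. Averaged over the plus-strand near copies, with positions without a peak at 0, the mean was highest at position 6, 11 and 11 in ASC B1 T1, B1 T2 and B2 T2, at position 105 in B2 T1, and at positions 1 and 4 in C2C12. Over the minus-strand near copies it was highest at positions 85 and 74 in ASC B1, at 128, inside the Sm site, in both ASC B2 libraries (11.4 and 9.23 reads per bin), and at 23 and 28 in C2C12. A peak has 1 value over all its bases, so these positions are not resolved to 1 base. In ASC B1 T1 the plus-strand mean was the same from position 6 to 12.

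**Figure D5:**
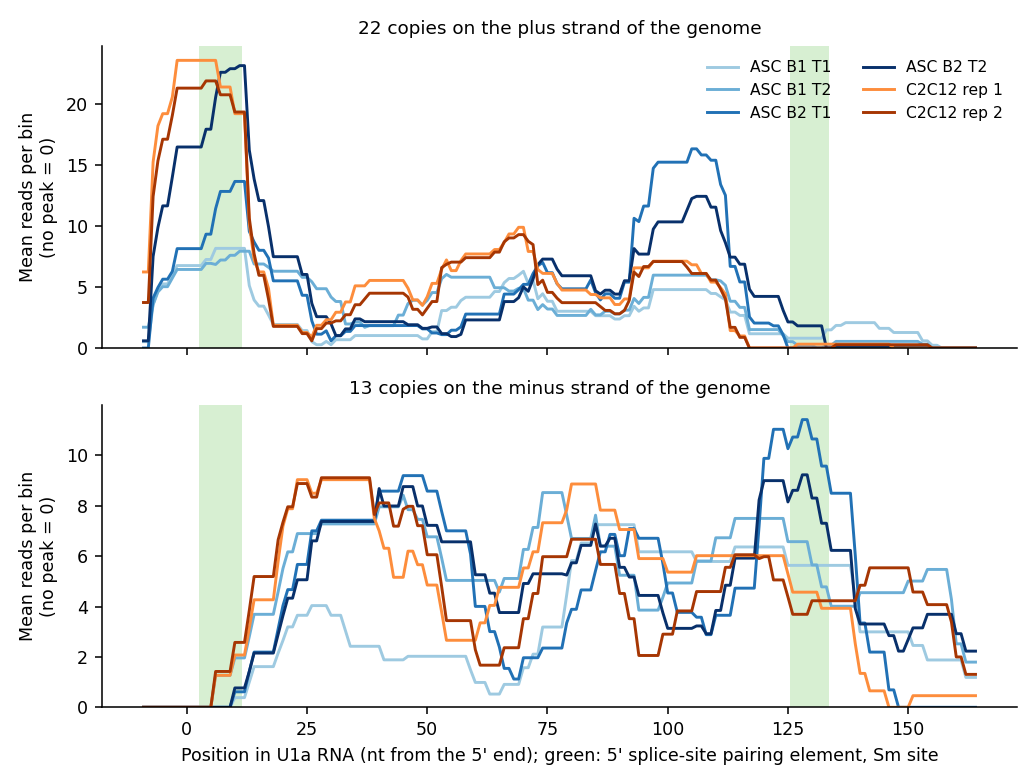
Mean reads per bin over the near copies at each position of U1a, for 22 plus-strand copies (top) and 13 minus-strand copies (bottom), 1 line per library, with positions without a peak counted as 0. On the plus strand the C2C12 lines are highest at the first bases and ASC B2 T1 is highest near position 105, and on the minus strand no line starts before the pairing element.

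The Sm site starts at position 126 of the 164 nt of U1a, so most of the RNA lies upstream of it. The centre of most U1 peaks lay upstream of the Sm site too. This held for 356 of 399 ASC peaks (89.2%, exact Clopper-Pearson 95% interval 85.8 to 92.1) and 170 of 185 C2C12 peaks (91.9%, 87.0 to 95.4), intervals that cover counting error only and treat copies that share reads as separate. The share ran from 88.0% to 90.7% over the ASC libraries and was 96.6% and 87.8% in the C2C12 libraries. The C2C12 libraries lay on both sides of the ASC range. On near copies of the plus strand it was 95.8% in ASC and 97.9% in C2C12, and on the minus strand 78.4% and 79.2%. The Sm site itself was under a peak, wholly or in part, on 12 to 15 of the 35 near copies in ASC and on 8 and 6 in C2C12. These peaks had at most 17 reads per bin. At position 129, inside the Sm site, a peak was listed on 2, 1, 0 and 3 of the 22 plus-strand copies in ASC and on 1 and 0 in C2C12, but on 9, 9, 12 and 11 of the 13 minus-strand copies in ASC and on 7 and 5 in C2C12. The pairing element was under a peak, wholly or in part, on 16 to 22 near copies in ASC, with up to 48 reads. In each C2C12 library it was so on 20, with up to 54.

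U1a and U1b could be compared where their bases differ, between positions 60 and 77. On the plus strand, 8 near copies have the U1a bases there and 6 have those of U1b. A peak was counted over this stretch if it overlapped it by 1 base or more. One was found on 8 and 5 of the 8 U1a copies in ASC B1 (T1, then T2), on 2 and 1 in ASC B2, and on 6 and 7 in C2C12. It was found on all 6 U1b copies in every ASC library and on 5 in each C2C12 library. On this strand the 2 ASC B2 libraries thus listed it on few U1a copies and on all U1b copies. On the minus strand they did not: B2 T1 and B2 T2 listed the stretch on 4 and 6 of 6 U1a copies and on 2 of 4 U1b copies each. On 3 of the 6 plus-strand U1b copies the B2 peak was 2 bins wide, began at position 70, 72 or 73 and reached 108 to 112, so that it lay mostly beyond the stretch. The copies of 1 form share most reads and are not independent, so no test was made.

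Few bins held a 20-nt sequence found at a single place. Bins that crossed a gene end were left out of this count, because their flank is unique while the reads reach into the shared RNA. Of the U1 peaks with a bin wholly inside the gene, 6 of 62, 15 of 78, 33 of 106 and 29 of 100 in ASC had a 20-nt sequence found once in mm9, and 12 of 69 and 16 of 81 in C2C12. The most frequent 20-nt sequence occurred 37 times in the genome. The mm9 sequences without annotated genes here were not searched, so all such counts in this text are minimum counts. The first 4 single-copy bins by number of libraries and mean reads are shown, with positions on U1a and capitals for the bases that differ from U1a. They lie at chr12:55797821-55797840, chr10:9820801-9820820, chr10:9820761-9820780 and chr2:117074061-117074080, all on the plus strand of mm9.
ENSMUSG00000075736.1, positions 53 to 72: cgaggctCatccattgcact
ENSMUSG00000065876.1, positions 51 to 70: gTcgaggcttatccattgca
ENSMUSG00000065876.1, positions 7 to 30: Tccaggggagataccatgat
ENSMUSG00000065845.1, positions 55 to 74: aggTGtatccattgcactcc
The substitutions from U1a were T60C at ENSMUSG00000075736.1, G52T and A7T at ENSMUSG00000065876.1, and C58T and T59G at ENSMUSG00000065845.1. The bin from 7 to 30 also lacks 4 bases of U1a, positions 9 to 12 in the alignment. All 3 genes lie outside protein-coding genes. The other 3 bins differ from U1a by 1 or 2 bases, no more than the 2 mismatches allowed, so a read from another copy could be placed on them. After the missing bases, the bin from 7 to 30 follows U1a without a change. A read from another copy that starts there could be placed on it too.

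The bin with T60C at ENSMUSG00000075736.1 had 15, 12 and 5 reads in ASC B1 T1, B1 T2 and B2 T1, no listed peak in B2 T2, and 22 and 45 in C2C12. Both C2C12 values were above all ASC values. The 45 reads of C2C12 replicate 2 were also more than the highest peak over positions 60 to 77 on any plus-strand near copy with the U1a bases in that library, which was 22. At ENSMUSG00000065876.1, which is 91.5% identical to U1a, the bin from 51 to 70 had 13, 14 and 8 reads in ASC B1 T1, B1 T2 and B2 T2 and 24 and 22 in C2C12, and in B2 T1 it was part of a peak over 51 to 110 of 8.67 reads per bin. Its bin from 7 to 30 had 8, 7 and 21 reads in ASC B1 T2, B2 T1 and B2 T2, no listed peak in B1 T1, and 6 in each C2C12 library. The listed ASC values were here above the C2C12 values, but the unlisted one of B1 T1 need not be. At ENSMUSG00000065845.1 the bin from 55 to 74 had 6, 8 and 8 reads in ASC B1 T1, B1 T2 and B2 T1 and 22 in C2C12 replicate 2. In ASC B2 T2 and C2C12 replicate 1 it was part of a peak over 55 to 114, of 12.7 and 9.67 reads per bin.

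Some diverged genes also had peaks in all 6 libraries. ENSMUSG00000064605.3, 149 nt long and 79.3% identical to U1a, had a bin over positions 38 to 57 of 40 and 35 reads in C2C12. Its highest peak in ASC had 9 and 8.5 reads per bin over 2 bins, positions 38 to 77, in B1, and 7 over 38 to 57 in B2 T2. In B2 T1 it had 6 over 18 to 37, and no peak was listed over 38 to 57. The C2C12 values were well above the listed ASC values, and the 20-nt sequence of the bin from 38 to 57 occurs 36 times in mm9. ENSMUSG00000065096.1, 84.1% identical, had a bin across its 5′ end of 8, 14, 17 and 13 reads in ASC and 23 and 24 in C2C12. ENSMUSG00000065794.1, on the minus strand and 69.5% identical, had a bin over positions 118 to 137 of 7, 15, 17 and 15 in ASC and 17 and 15 in C2C12, whose sequence occurs 37 times. The groups did not overlap on ENSMUSG00000065096.1 and overlapped on ENSMUSG00000065794.1.

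A further 15 U1 genes had peaks in ASC libraries and in neither C2C12 library, beside 1.64% of the 1217 other snRNA genes (20 genes). No U1 gene had peaks in C2C12 alone, beside 3.7% of the other snRNA genes (45 genes). All 15 U1 genes with peaks in ASC alone had a peak in a B2 library and 2 in a B1 library, and 9 of them had it in 1 library only. Their highest bin held 4 to 18 reads with a median of 6, and on 9 of the 15 it held at least 6, the lowest number listed in C2C12. Their identity to U1a ran from 70.7% to 92.7%.

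Some forms of the sequence context in which m6A is usually found were searched on the RNA strand. U1a holds AAACT at positions 111 to 115 and GGACT at 141 to 145. It holds neither GAACT nor the form AGACT. U1b holds AAACT and, through its inserted G, no GGACT. Peaks overlapped U1a positions 111 to 115, where AAACT lies, by 1 base or more on 21, 22, 17 and 20 near copies in ASC. In C2C12 they did so on 17 and 16. The copy ENSMUSG00000065212.1, counted in B2 T1, lacks bases 112 to 116 of U1a and so this AAACT. The positions of GGACT were overlapped in the same way on 12, 9, 4 and 6 near copies in ASC and on 3 and 9 in C2C12. Within 20 nt of single-bin peaks and on the RNA strand, AAACT occurred at 16.3%, 24.5%, 37.9% and 29.9% of U1 peaks in ASC and at 9 of 61 and 15 of 75 in C2C12, beside 4.15% to 5.04% of all single-bin peaks of the libraries. GGACT occurred at 1.64% to 16.8% of U1 peaks, beside 4.80% to 5.56% of all. GAACT occurred at 3 or fewer U1 peaks of a library, beside 4.41% to 18.5% of all, and AGACT at 1 or 2, beside 5.59% to 6.44%. The U1 peaks share a few sequences, so these shares describe where the peaks lie in 1 RNA. Methylation was not measured in these files, and a match is not a methylated site.

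Genes of the proteins that bind U1 were set beside it. Of 15 such genes, 9 had a peak in both C2C12 libraries, where 28.4% of all protein-coding genes did, and 5 had one in any ASC library, where 25.1% did. None had a peak in all 4 ASC libraries, where 3.3% of protein-coding genes did. Snrnp70, which encodes U1-70K, held 0, 0, 1 and 6 peaks in the ASC libraries and 9 and 14 in C2C12. Luc7l2, a U1-associated splicing factor, held 0, 0, 1 and 2 in ASC and 22 and 29 in C2C12, and its relatives Luc7l and Luc7l3 held at most 1 in ASC and 12 and 7, and 3 and 4, in C2C12. In all 3 Luc7 genes and in Snrnp70 both C2C12 libraries had more peaks than any ASC library, as they had over the whole lists (60540 and 71992 against 7925 to 19448 peaks). Snrpa, which encodes U1A, had peaks in C2C12 only, 3 and 1. Of the Sm protein genes, Snrpb held at most 1 peak in ASC and 2 and 3 in C2C12, and Snrpd3 none in ASC and 3 and 1 in C2C12. Snrpc, Snrpe, Snrpf and Snrpg had none in any of the 6 libraries. Longer genes offer more places for a peak. U1 reads in peaks were 1002 and 1439 in ASC B1, 1727 and 1915 in ASC B2, and 1896 and 1802 in C2C12. Most of these partner genes were without peaks in ASC, as were most protein-coding genes (25.1% had one in any ASC library). No cause was tested.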

How the data were processed

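LACE-seq peaks were analysed in 4 ASC and 2 C2C12 libraries. The authors trimmed reads (Cutadapt 1.15), removed those matching pre-rRNA, placed the rest on mm9 (Bowtie 1.2.3, 2 mismatches, up to 10 positions per read) and called peaks per library (Piranha 1.2.1, 20-nt bins, p threshold 0.001, settings named for ASC), so copies of a sequence can share reads. The treatment of duplicate reads is not given in the sources used here. The deposited signal is the number of reads per bin, averaged where a peak spans several bins, and the deposited p-value is Piranha's, unadjusted. Neither was normalized. Genes came from GENCODE vM1 and sequence from NCBIM37, which is mm9 but here lacked the sequences without annotated genes. Each U1 gene was aligned to U1a (Biopython 1.88), which gave its identity and the positions of its peaks. Shares used reads per bin times bins. The alignment, overlap and 20-nt counts were tested on simulated data, and 6 of 6 checks passed. The genes named are the reference copy, the 5 highest by mean in each cell type, genes with peaks in all 6 libraries (up to 20) and genes with single-copy bins. Of the genes listed as U1 partners, 1 is not reported here and is left out of the counts. The members and lists were chosen with earlier results of these data known. RefSeq names (GRCm38) were used as names only. Alternatives to strand, overlap, p, reads, identity and libraries are in the closing section.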

Additional observations from a re-analysis of the deposited data

Results flagged for a closer look

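In groups of 4, the lowest or highest ASC library was set against the other 3 with Dixon's ratio at its 95% critical value. Of 46 sets of values drawn up, those with 4 equal values could not be tested. Among them were genes without a peak in any ASC library and the 5′-end shares of minus-strand copies. Fewer than 46 sets were thus tested, and 8 were flagged. Chance alone passes about 1 group in 20 when the values are independent. The libraries are technical pairs of 2 biological replicates, so that rate need not hold here. The share of reads in peaks on U1 genes in B2 T1, 2.93%, lay far from the other 3 (1.71% to 1.79%). Without it the ASC mean was 1.74% in place of 2.04%, still above both C2C12 libraries. The highest peak of ENSMUSG00000075978.1 held 44 reads per bin in B2 T2 against 16 to 19 in the others. The 19 of B2 T1 is the mean of 2 bins, so a single bin there may have held more. On near copies of the minus strand, 95% of the peaks of B1 T1 were centred upstream of the Sm site, against 72.7% to 76.0%. Pax7 held 10 peaks in B2 T2 against 1 to 2, and Snrnp70 held 6 against 0 to 1, and B2 T2 is also the library with the most peaks of the 4. Luc7l and Luc7l3 each held 1 peak in B2 T2, and Myf5 held 1 in B2 T1, against 0 in the others, where the ratio is 1 for any number of peaks, so these 3 say nothing about the size of the gap. The causes were not tested.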

How the results depend on the processing

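No paired analysis was possible because the replicate numbers of ASC and C2C12 name different cultures. Of 65 alternatives to the 7 results, 50 counted as unchanged and none turned a direction. Unchanged meant within the replicate spread or, for gene counts, within 1.5 times. For the 7 alternatives to the difference in share between ASC and C2C12, only a change of sign could count as a change. Counting either strand could change no value, since no peak lay on the other strand. The floor of 6 reads could change none in C2C12, whose lists start there. With a p-value of at most 0.00001, 19 U1 genes had a peak in all 4 ASC libraries in place of 39, and the U1 share of reads was 3.79% in ASC and 0.906% in C2C12. That setting put 91.5% of ASC peaks upstream of the Sm site. With the same floor of 6 reads per bin for all 6 libraries, the ASC share was 3.17%, and the C2C12 share stayed at 0.330%. Among genes at least 95% identical to U1a, 23 had a peak in all 4 ASC and 23 in both C2C12 libraries, with shares of 1.42% and 0.237%. Counted in peaks in place of reads, U1 took 0.960% in ASC and 0.140% in C2C12. Chosen after the data were seen, leaving peaks on sequences without annotated genes out of the total gave shares of 2.06% and 0.331%, and U1 genes of the plus strand alone gave 96.2% (ASC) and 98.2% (C2C12) of peaks upstream of the Sm site, and those of the minus strand alone 78.9% and 82.2%. Leaving out each library gave 39 to 52 genes in ASC and 50 to 52 in C2C12, shares of 1.74% to 2.15% and 0.297% to 0.362%, and 88.9% to 89.7% and 87.8% to 96.6% of peaks upstream of the Sm site. The difference in share of reads, ASC minus C2C12, was 1.71 percentage points. With 1 library left out and the ASC mean taken over biological replicates, it ran from 1.41 to 2.02. With the mean taken over libraries, as in the other values here, it ran from 1.41 to 1.82. It was 2.88 points with a p-value of at most 0.00001, 2.85 with the floor of 6 reads, 1.18 for genes at least 95% identical and 0.821 counted in peaks. The causes of these shifts were not tested. Peak lists hold no value below a library's threshold, so an unlisted bin is not a bin without reads.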
